A study of Mus musculus with 5 samples.

Results

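The genes described here encode kinases that run mitosis and the checkpoint that watches over it: the Aurora kinases *Aurka* and *Aurkb*, the Polo-like kinases *Plk1* and *Plk4*, the checkpoint kinases *Bub1*, *Bub1b* and *Ttk*, the related kinases *Nek2* and *Melk*, and the checkpoint protein *Mad2l1*, which is not a kinase. These 10 genes were taken by name from 18820 genes that had a row with a single gene symbol on the array, and each was read from its brightest such row. Liver RNA was measured on Affymetrix Mouse Gene 1.1 ST arrays, 1 array per mouse. All mice were adult C57BL/6. The control group was 2 mice that received PBS, and the treated group was 3 mice that received CSF1-Fc, a fusion of pig CSF1 (the macrophage growth factor) with the Fc part of pig IgG, at 1 mg/kg. Both groups were injected under the skin on 4 consecutive days and culled on day 5. The whole liver was sampled, so each value sums over hepatocytes, macrophages and any other cells present. The comparison asks how CSF1-Fc changed expression in the liver.

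Mitosis is driven by kinases that are made as a cell approaches division and destroyed as it leaves. PLK1 and Aurora A mature the centrosomes and build the spindle, PLK4 starts the duplication of centrioles, and Aurora B sits on chromosomes as part of the chromosomal passenger complex and corrects faulty attachments. The spindle checkpoint is the brake: TTK (also called MPS1) and BUB1 load checkpoint proteins onto kinetochores without microtubules, and MAD2 and BUBR1, the product of *Bub1b*, hold back CDC20 and with it the anaphase-promoting complex. In the resting adult liver very few cells divide, and transcripts of these genes are low. They rise in regenerating liver and in any tissue that holds cycling cells.

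Promoters of the genes are shown because transcripts that rise together in cycling cells are often driven by a shared set of promoter boxes. RefSeq windows of the GRCm38.p6 build, from 250 bases before to 50 bases after the annotated start, were available for 9 of the 10 genes, all except *Aurkb*. The windows were searched on both strands for CCAAT (the box that the factor NF-Y binds), for TTTGAA or TTCGAA (the cell cycle genes homology region, CHR) and for E2F boxes, spelled TTCCCGC in one form and TTCGCGC in another, with TTGCCGC and also TTGGCGC as further forms. No motif overlaps another in the windows printed. The 120 bases before the start of the 6 genes with a CCAAT box, and of *Plk4*, which holds the E2F box, are given 5′ to 3′ on the strand of the gene, with motif matches in capitals (ATTGG is CCAAT read on the other strand, and GCGGGAA is the E2F box read on the other strand).
*Aurka*, chr2:172370571-172370690, minus strand: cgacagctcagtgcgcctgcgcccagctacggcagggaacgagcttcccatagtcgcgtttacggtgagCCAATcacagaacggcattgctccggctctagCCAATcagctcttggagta
*Plk1*, chr7:122159315-122159434, plus strand: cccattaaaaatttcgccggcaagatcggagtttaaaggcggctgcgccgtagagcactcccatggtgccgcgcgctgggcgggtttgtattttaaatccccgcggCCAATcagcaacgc
*Plk4*, chr3:40799831-40799950, plus strand: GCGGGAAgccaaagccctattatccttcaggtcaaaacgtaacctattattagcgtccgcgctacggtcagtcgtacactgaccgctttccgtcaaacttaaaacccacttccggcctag
*Bub1*, chr2:127831860-127831979, minus strand: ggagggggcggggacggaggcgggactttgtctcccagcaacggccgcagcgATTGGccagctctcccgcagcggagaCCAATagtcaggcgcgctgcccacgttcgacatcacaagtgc
*Bub1b*, chr2:118598091-118598210, plus strand: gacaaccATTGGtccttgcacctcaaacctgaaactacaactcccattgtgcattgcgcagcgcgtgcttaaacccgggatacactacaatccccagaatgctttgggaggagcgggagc
*Ttk*, chr9:83834569-83834688, plus strand: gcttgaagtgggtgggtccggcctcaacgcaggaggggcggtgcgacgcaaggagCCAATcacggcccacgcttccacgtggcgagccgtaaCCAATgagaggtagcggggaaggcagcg
*Nek2*, chr1:191821353-191821472, plus strand: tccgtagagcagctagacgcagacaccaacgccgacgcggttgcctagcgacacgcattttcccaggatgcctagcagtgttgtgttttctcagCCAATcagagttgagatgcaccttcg

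CCAAT was found in 6 of the 9 windows, against 37.4% of all 32851 windows. *Aurka* and *Ttk* each held it in the same orientation at 2 places, beginning at positions -51 and -19 from the start in *Aurka* and at -65 and -28 in *Ttk*. In *Bub1* the 2 boxes faced opposite ways, and in *Nek2* a second box began at base 8 after the start. TTTGAA or TTCGAA was found in 5 of the 9 windows, against 19.2% of all windows. In each of these 5 genes a match lay just after the annotated start, with its first base at 33 in *Aurka*, 31 in *Plk1*, 15 in *Bub1*, 41 in *Bub1b* and 8 in *Ttk*. *Bub1b* had a further TTCGAA at position -188. The short stretches around the matches after the start are given on the strand of the gene, with the match in capitals (TTCAAA in *Ttk* is TTTGAA read on the other strand).
*Aurka*: ttaaaaggagaaccTTTGAAttgt
*Plk1*: ttcccagcgccgcgTTTGAAttcg
*Bub1*: ggctgcgcggggaaTTCGAAtcgc
*Bub1b*: caagagacgttaaaTTTGAAactt
*Ttk*: ggcagcggggaaatTTCAAAcgtg

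An E2F box of the letters searched was found in 1 of the 9 windows, that of *Plk4*, against 9.57% of all windows. The windows of *Melk* and *Mad2l1* held none of the 7 letter strings. A match describes letters in a window and is no measure of binding, and with 9 windows the shares were compared without a test.

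All 10 transcripts were higher in CSF1-Fc livers than in PBS livers, by log2 fold changes of 1.83 (*Nek2*) to 3.91 (*Aurkb*). Each passed an adjusted p of 0.05 from limma, and for each gene all 3 CSF1-Fc mice lay above both PBS mice. Over all genes, 8.34% were higher and 3.95% were lower at the same threshold (5.77% and 3.19% of all 35556 rows), and 18.2% had all CSF1-Fc values above both PBS values. The median log2 fold change was 2.84 for the 10 genes and -0.08 over all genes. The 10 genes and the lists below were chosen with earlier results of these data known. Their counts and medians beside those of all genes are therefore description and no test. Of the 18820 genes, 4 of the 10 were among the 100 largest rises. The smallest gap between the groups, in *Nek2*, was 1.57 log2 units, and the largest range within a group was 0.53, among the CSF1-Fc values of *Melk*. With 2 mice against 3 an exact permutation test cannot go below p = 0.1 (two-sided), which is the value every gene gave. In bulk liver, more cells of a type and more RNA per cell cannot be told apart.

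**Figure D1:**
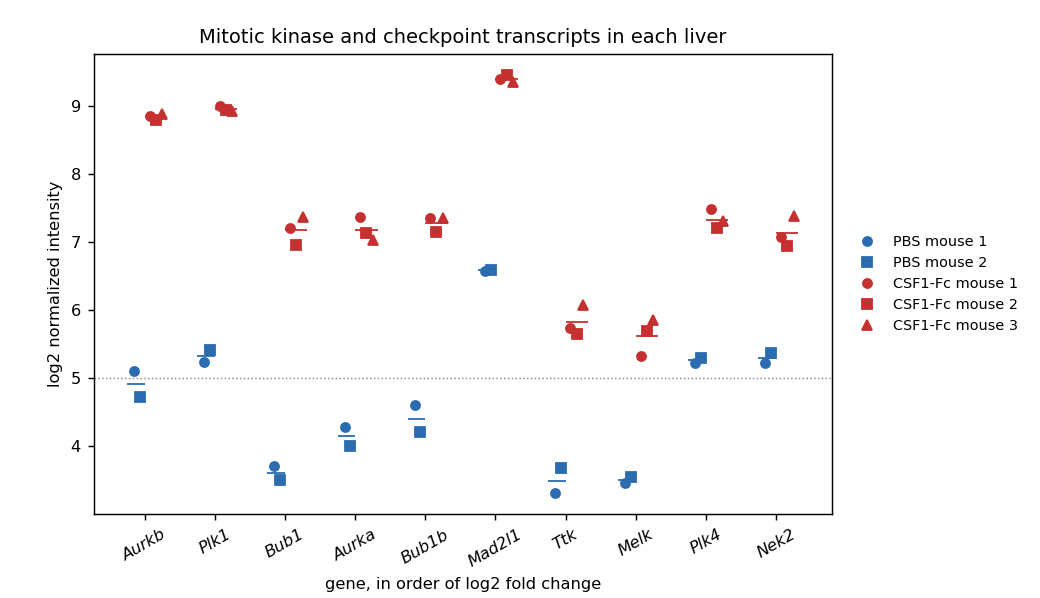
Each point is 1 mouse: blue points are the 2 PBS livers and red points the 3 CSF1-Fc livers, the vertical axis is log2 normalized intensity, short lines are group means, and the dotted line marks a log2 intensity of 5, under which rows were dim. The genes stand in order of log2 fold change from *Aurkb* (3.91) to *Nek2* (1.83), every red point lies above both blue points of its gene, and 6 genes had PBS means under 5.

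*Aurkb*, the kinase of the chromosomal passenger complex, had the largest rise of the 10. Its log2 intensity was 5.11 and 4.73 in the PBS mice and 8.84, 8.78 and 8.88 in the CSF1-Fc mice. The treated mice lay within 0.10 of each other and far above the controls. *Aurkb* rose by a log2 fold change of 3.91 (standard error, SE, of 0.16, limma adjusted p = 0.000358), a 15.1-fold rise with a 95% interval of 11.6 to 19.5. *Aurka*, which builds the spindle poles, was at 4.29 and 4.01 in PBS mice and at 7.36, 7.14 and 7.03 in CSF1-Fc mice. Both control values were dim and no treated mouse came near them. Its log2 fold change was 3.03 (SE 0.16, limma adjusted p = 0.000378), or 8.16-fold (6.20 to 10.7).

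*Plk1*, the Polo-like kinase of mitotic entry and the spindle, was at log2 intensities of 5.24 and 5.41 in PBS mice and 8.93 and 8.92 in CSF1-Fc mice 2 and 3, and CSF1-Fc mouse 1 lay 0.05 above the group mean of 8.95. Its treated mice were the tightest of the 10 genes, with a range of 0.08. *Plk1* rose by a log2 fold change of 3.62 (SE 0.13, limma adjusted p = 0.000282), or 12.3-fold (9.95 to 15.2), the lowest adjusted p among the 10. *Plk4*, the kinase of centriole duplication, was at 5.22 and 5.30 in PBS mice and at 7.48, 7.20 and 7.30 in CSF1-Fc mice. The groups stood clear of each other, by a smaller margin than for *Plk1*. The log2 fold change of *Plk4* was 2.07 (SE 0.14, limma adjusted p = 0.00048), or 4.19-fold (3.31 to 5.30). The 95% intervals of the 2 Polo-like kinases did not overlap, and the difference between them was not tested.

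Among the checkpoint genes, *Bub1* was at 3.71 and 3.51 in PBS mice and at 7.21, 6.96 and 7.37 in CSF1-Fc mice. Its PBS values were dim, and the groups stood far apart. Its log2 fold change was 3.57 (SE 0.17, limma adjusted p = 0.000358), or 11.9-fold (8.98 to 15.7). *Bub1b*, whose product BUBR1 binds CDC20, was at 4.61 and 4.21 in PBS mice and 7.35, 7.14 and 7.36 in CSF1-Fc mice. The treated values were close together, well above both controls. The log2 fold change of *Bub1b* was 2.87 (SE 0.17, limma adjusted p = 0.000422), or 7.32-fold (5.52 to 9.71).

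*Ttk*, the kinase that starts checkpoint signalling at kinetochores, was at 3.31 and 3.68 in PBS mice and 5.74, 5.65 and 6.07 in CSF1-Fc mice. Its PBS values were dim, and all treated mice lay above both controls. Its log2 fold change was 2.32 (SE 0.19, limma adjusted p = 0.000847), or 5.00-fold (3.64 to 6.87). *Mad2l1*, the checkpoint protein that captures CDC20, was at 6.57 and 6.59 in PBS mice and 9.39, 9.45 and 9.34 in CSF1-Fc mice, so that both groups were tight. The log2 fold change of *Mad2l1* was 2.81 (SE 0.12, limma adjusted p = 0.000358), or 7.03-fold (5.74 to 8.61). *Mad2l1* alone had a second row of its symbol, at 5.85 and 6.27 in PBS mice and 8.11, 7.90 and 7.68 in CSF1-Fc mice. The second row gave a smaller log2 fold change of 1.84 (95% interval 1.37 to 2.30, adjusted p = 0.00234), so the size of the *Mad2l1* rise depends on the row.

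*Nek2*, a NIMA-family kinase that splits the centrosomes, was at 5.22 and 5.37 in PBS mice and 7.07, 6.95 and 7.38 in CSF1-Fc mice. It had the smallest log2 fold change of the 10 and was 539th of the 18820 genes in that order. With a pseudocount of 16 its log2 fold change was above those of *Ttk* (1.41) and *Melk* (1.25). Its rise was 1.83 on the log2 scale (SE 0.17, limma adjusted p = 0.00133), or 3.57-fold (2.69 to 4.73). *Melk*, an AMPK-related kinase found in dividing cells, was at 3.47 and 3.55 in PBS mice and 5.32, 5.69 and 5.85 in CSF1-Fc mice. The treated mice were the most widely spread of the 10 genes, with mouse 1 lowest. The log2 fold change of *Melk* was 2.11 (SE 0.18, limma adjusted p = 0.00106), or 4.32-fold (3.18 to 5.87).

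In order of log2 fold change the genes ran *Aurkb* (3.91), *Plk1* (3.62), *Bub1* (3.57), *Aurka* (3.03), *Bub1b* (2.87), *Mad2l1* (2.81), *Ttk* (2.32), *Melk* (2.11), *Plk4* (2.07) and *Nek2* (1.83). Each gene's 95% interval overlapped that of its neighbour in the order, and differences between the genes were not tested. The intervals of *Plk4* and *Nek2*, which ended at 2.40 and 2.24, lay below those of the 6 genes from *Aurkb* to *Mad2l1*, whose lowest bound was 2.47. For *Mad2l1* this held on its brighter row, since the interval of its second row (1.37 to 2.30) overlapped both. PBS means were under a log2 intensity of 5 for *Aurka*, *Aurkb*, *Bub1*, *Bub1b*, *Ttk* and *Melk*, and for 44% of all genes. For such dim rows the fold is poorly fixed. With a pseudocount of 16 added before the logarithm, the log2 fold change was 1.41 for *Ttk* and 1.25 for *Melk*, each over 1.5 times smaller, and the adjusted p stayed at 0.00485 and 0.00773. Without moderation of the variance, which makes it an ordinary t-test, 7 of the 10 passed. The adjusted p of that t-test was 0.0599 for *Ttk*, 0.0613 for *Nek2* and 0.0619 for *Melk*.

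The 3 CSF1-Fc mice differed little from each other. The mean log2 intensity over the 10 genes was 4.68 and 4.64 in the PBS mice and 7.48, 7.39 and 7.55 in the CSF1-Fc mice. CSF1-Fc mouse 3 was the highest of its group for 6 genes and the lowest for 3, mouse 2 was the lowest for 6, and mouse 1 was the highest for 3. Mouse 3 was high for *Bub1*, *Ttk*, *Nek2* and *Melk* and lowest for *Aurka*, *Plk1* and *Mad2l1*, so no mouse stood above the others for every gene. Each of these deviations is at most 0.30 log2 units, against a fold change of at least 1.83.

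**Figure D2:**
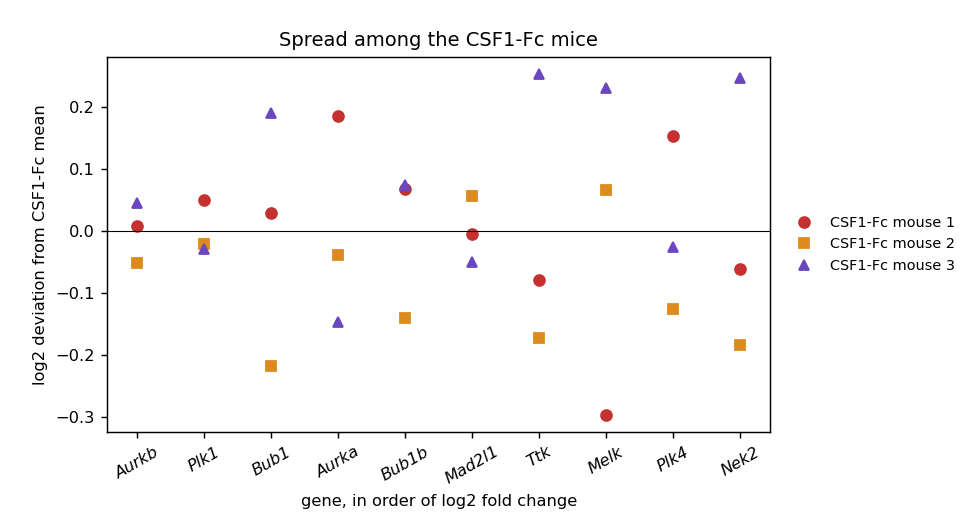
Each point is 1 CSF1-Fc mouse, and the vertical axis is its log2 intensity minus the mean of the 3 CSF1-Fc mice for that gene. *Melk* spans the widest range (0.53) and *Plk1* the narrowest (0.08), and no mouse is the highest for all 10 genes.

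Markers of macrophages rose in the same livers. Of 15 macrophage markers, 15 were higher, with a median log2 fold change of 2.15, and their summed intensity was 8281 to 8920 in PBS mice and 34267 to 36851 in CSF1-Fc mice. The range for *Fcgr1*, a receptor for immunoglobulin, was 5.58 to 6.06 in PBS and 9.39 to 9.64 in CSF1-Fc mice. Of 10 markers of granulocytes and their precursors, 7 were higher and 0 lower, with summed intensities of 339.7 and 2130 in PBS mice and 1940 to 2557 in CSF1-Fc mice. The granulocyte sums of the groups overlapped through *Lcn2*, which was at 10.86 in PBS mouse 1 and 7.24 in PBS mouse 2. Most of the sum in PBS mouse 1 was *Lcn2*, the only granulocyte marker whose own values overlapped between the groups. For the other 9 of the 10 granulocyte markers all treated mice lay above both controls, against 18.2% of all genes. The median log2 fold change of the 10 was 1.05, in a range from 0.46 (*Lcn2*) to 3.97 (*S100a8*). Of 10 lymphocyte markers, 5 were higher and 0 lower, with sums of 292.5 and 308.8 against 605.5 to 858.1. Of 8 erythroid precursor markers, only the transferrin receptor *Tfrc* was higher and only *Alas2*, of haem synthesis, was lower, with a median log2 fold change of 0.26. For 5 of the 8 all treated mice lay above both controls, against 18.2% of all genes. The erythroid transcription factors *Klf1* (5.03 to 5.66) and *Gata1* (3.67 to 4.16) did not pass. The summed intensity of the 8 markers was 1466 and 1503 in PBS mice and 1068 to 1233 in CSF1-Fc mice, and most of it was *Alas2*. Without *Alas2*, a sum taken after the values were seen, it was 223.5 and 230.8 in PBS mice and 311.4 to 381.2 in CSF1-Fc mice. The labelled tissue was borne out by the hepatocyte markers, of which *Alb* (albumin) lay between 13.20 and 13.28 in all 5 livers. By limma 0 of 10 hepatocyte markers passed in either direction (0 higher and 7 lower at an unadjusted p under 0.05). Over all genes 8.34% were higher and 3.95% lower at the adjusted threshold, and the shares at the unadjusted threshold were not counted. For 7 of the 10 hepatocyte markers all treated mice lay below both controls, against 29.3% of all genes. The log2 fold changes of the 10 ran from -0.93 to 0.03, with a median of -0.38. The summed intensity of the 10 was 57251 and 60640 in PBS mice and 47561 to 52974 in CSF1-Fc mice. The part of any of these cell types in the rise of the mitotic genes was not tested.

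Relatives in the same kinase families did not pass the test. Of 3 Aurora kinases measured, 2 rose, of 5 Polo-like kinases 2 rose, and of 9 NIMA-family kinases *Nek2* alone passed. Among the 12 relatives outside the 10 genes, 0 passed by limma at an adjusted p of 0.05 and 0 at an unadjusted p under 0.05, with log2 fold changes of -0.40 to 0.16. Over all genes 8.34% were higher and 3.95% lower at the adjusted threshold, so a count of 0 among 12 says little by itself. *Aurkc*, the Aurora kinase of germ cells, was at 5.82 and 5.33 in PBS mice and 4.95, 5.44 and 5.13 in CSF1-Fc mice. The groups overlapped for *Aurkc*, and its log2 fold change was -0.40 (95% interval -0.92 to 0.11).

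The other Polo-like kinases showed no group difference past the test. *Plk3* was at 10.13 and 8.27 in the PBS mice and 9.57, 9.38 and 8.52 in the CSF1-Fc mice. Its control mice lay further apart than the treated mice, and the log2 fold change of -0.04 had a 95% interval of -1.42 to 1.33, wide enough to hide a change of over 2-fold either way. *Plk2* was at -0.40 (-1.16 to 0.36) and *Plk5* at -0.37 (-0.74 to 0.01). All 3 treated mice lay below both controls for *Plk5*, which 29.3% of all genes also did. Among NIMA kinases, *Nek6* and *Nek7* act with *Nek9* on the spindle. Their log2 fold changes were -0.20 (-0.50 to 0.11) for *Nek6*, -0.20 (-0.55 to 0.15) for *Nek7* and 0.16 (-0.13 to 0.46) for *Nek9*. The others, *Nek3*, *Nek4*, *Nek5*, *Nek8* and *Nek11*, lay between -0.27 and 0.08. Dim rows were those of *Nek3*, *Nek5* and *Nek11*, with PBS means of 4.80, 3.86 and 3.27. At that level the array may miss a change, whatever the width of the interval. Upper interval bounds of *Aurkc* and the 8 NIMA relatives reached at most 0.47, below the lower bounds of *Aurka* (2.63), *Aurkb* (3.54) and *Nek2* (1.43). The differences between members of a family were not tested.

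**Figure D3:**
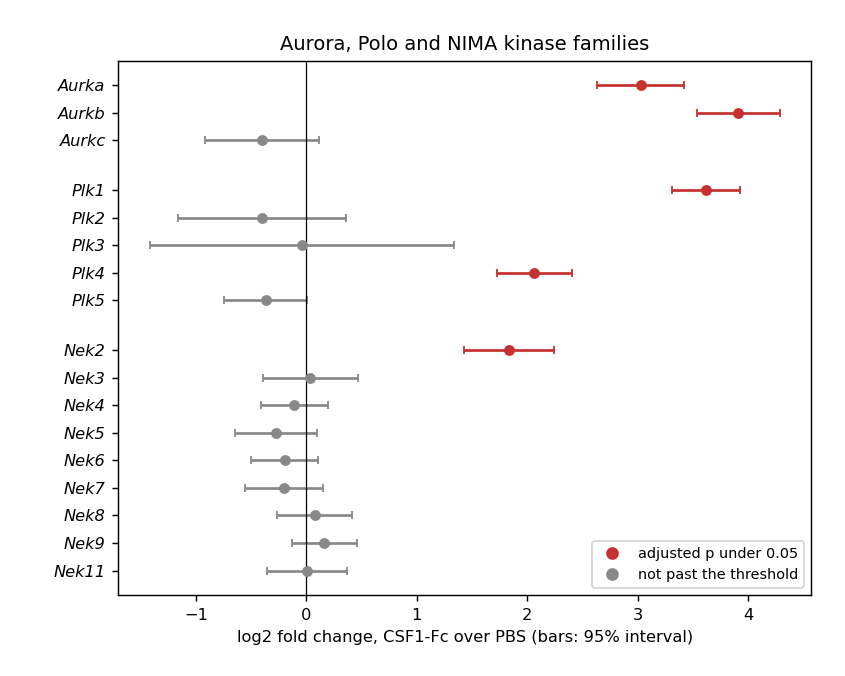
Points are log2 fold changes, CSF1-Fc over PBS, for each Aurora, Polo-like and NIMA-family gene with a row, and bars are 95% intervals from limma. Red points passed an adjusted p of 0.05: *Aurka*, *Aurkb*, *Plk1*, *Plk4* and *Nek2* stand at 1.83 or more, and the 12 grey points stand between -0.40 and 0.16.

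Most partners that hold or activate the Aurora kinases rose with them. Of 10 genes with a row in this list, which also counts the kinase *Aurkc*, 8 rose, 0 fell and 2 missed the threshold. The median log2 fold change was 1.95 (8.34% of all genes were higher). *Hmmr*, which places TPX2 at spindle poles, was at 3.88 and 4.25 in PBS mice and 6.87, 6.60 and 7.19 in CSF1-Fc mice, a log2 fold change of 2.83 (SE 0.21, limma adjusted p = 0.000694). *Tpx2*, the activator of Aurora A, was at 4.81 and 4.86 against 7.68, 7.14 and 8.02. CSF1-Fc mouse 3 was the highest and mouse 2 the lowest for both. *Tpx2* had a log2 fold change of 2.78 (SE 0.26, limma adjusted p = 0.00133). *Birc5* (survivin) and *Incenp*, subunits of the complex that carries Aurora B, were at 2.45 (adjusted p = 0.000737) and 2.15 (adjusted p = 0.00154). Not past the test were *Aurkc* and *Ajuba*, a LIM protein, at 0.42 (adjusted p = 0.278). With no moderation of the variance only 2 of the 8 passed, and the adjusted p of the ordinary t-test was 0.0581 for *Hmmr*, 0.0801 for *Tpx2*, 0.056 for *Birc5* and 0.0745 for *Incenp*.

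Of 8 checkpoint partners with a row, 4 rose, 0 fell and 4 missed the threshold, with a median of 0.47 (8.34% of all genes were higher). *Knl1*, the kinetochore scaffold on which BUB1 and BUBR1 assemble, was at 4.41 and 4.32 in PBS mice and 7.31, 7.19 and 7.47 in CSF1-Fc mice. Its log2 fold change of 2.96 (SE 0.14, limma adjusted p = 0.000358) was the largest of this list. *Kntc1*, part of the complex that brings MAD proteins to kinetochores, was at 1.80 (adjusted p = 0.000773), and *Trip13*, the ATPase that recycles MAD2, at 1.42 (adjusted p = 0.00124). *Bub3*, which binds BUB1 and BUBR1, rose least, from 7.52 and 7.54 to 8.37, 8.30 and 8.27. *Bub3* changed by 0.78 on the log2 scale (adjusted p = 0.0119), and the call was lost without PBS replicate 1 (0.101), PBS replicate 2 (0.107) or CSF1-Fc replicate 1 (0.0643). *Mad1l1*, the binding partner of MAD2, was at 0.00 (95% interval -0.56 to 0.56), and *Mad2l1bp*, which also binds MAD2, was at 0.08 (-0.78 to 0.93), an interval that includes a change as large as that of *Bub3*.

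The target of the checkpoint is the anaphase machinery. Of 19 genes measured, 6 rose, 0 fell and 13 missed the threshold, with a median of 0.31 (8.34% of all genes were higher). *Cdc20*, the activator that MAD2 and BUBR1 hold back, was at 5.06 and 5.05 in PBS mice and 7.92, 8.07 and 8.06 in CSF1-Fc mice. Both groups were tight, and the log2 fold change was 2.96 (SE 0.13, limma adjusted p = 0.000358). *Fbxo5* (EMI1), an inhibitor of the anaphase-promoting complex, was at 2.38 (adjusted p = 0.00045). *Espl1* (separase), the protease that cuts cohesin, was at 1.24 (adjusted p = 0.0123), and *Ube2s*, the enzyme that extends ubiquitin chains for the complex, at 1.15 (adjusted p = 0.0222). The other called genes were the subunits *Anapc5* at 0.70 and *Anapc15* at 0.90, while *Anapc1* and *Anapc2*, a scaffold and the cullin subunit, were at -0.03 and -0.06 and did not pass. Also not past the test were *Fzr1* (CDH1), the other activator of the complex, at 0.47 (adjusted p = 0.115), and *Pttg1* (securin), the inhibitor of separase, at 0.10 (adjusted p = 0.796). As the mean of its rows *Anapc5* was at 0.45 (adjusted p = 0.124). Only 2 genes of this list were called without PBS replicate 2 or without CSF1-Fc replicate 1. Lost in both cases were *Espl1* (adjusted p of 0.107 and 0.055), *Ube2s* (0.171 and 0.087), *Anapc5* (0.209 and 0.115) and *Anapc15* (0.178 and 0.0946). *Ube2s* (0.0782) and *Anapc5* (0.13) were also lost without PBS replicate 1, and *Anapc5* (0.0593) and *Anapc15* (0.052) without CSF1-Fc replicate 2.

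Other mitotic kinases were higher in the CSF1-Fc livers. Of 15 genes in the list of NIMA relatives and other mitotic kinases, 7 rose, 0 fell and 8 missed the threshold (8.34% of all genes were higher). Those 8 were the NIMA relatives already described. *Cdk1*, the master kinase of mitosis, was at 5.60 and 5.40 in PBS mice and 9.02, 8.91 and 8.97 in CSF1-Fc mice, a log2 fold change of 3.47 (SE 0.13, limma adjusted p = 0.000329). *Pbk* was at 2.48 (adjusted p = 0.000453), and at 1.52 as the mean of its rows, and *Mastl* (Greatwall), which restrains the phosphatase that opposes CDK1, at 2.33 (adjusted p = 0.000817). *Wee1*, an inhibitor of CDK1, rose too, at 1.71 (adjusted p = 0.00206). The remaining 3 that passed were *Haspin*, which phosphorylates histone H3 in mitosis, at 1.15, *Cit*, a kinase of cytokinesis, at 1.08, and *Vrk1* at 0.92. With a pseudocount of 16 *Haspin* was at 0.71 and *Cit* at 0.66. All 3 calls were lost when either PBS replicate 1 or PBS replicate 2 was left out. The count fell to 4 when either PBS replicate 1 or PBS replicate 2 was left out, and to 2 with no moderation of the variance, where *Mastl* (0.0583) and *Wee1* (0.0718) were lost.

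The Polo and centriole list held *Plk2*, *Plk3*, *Plk5* and 7 genes of centrioles and centrosomes. Of these 10 genes 1 rose, 0 fell and 9 missed the threshold, a share near the 8.34% of all genes that were higher, and the median was -0.01. The riser was *Stil*, which PLK4 phosphorylates at the start of centriole assembly, at 3.81 and 3.54 in PBS mice and 6.20, 6.12 and 6.51 in CSF1-Fc mice. Its log2 fold change was 2.60 (SE 0.17, limma adjusted p = 0.000464), and 1.70 with a pseudocount of 16. *Cep152*, the scaffold that recruits PLK4, was at 0.51 (adjusted p = 0.0571) with all treated mice above both controls. *Cep63* and *Cep135* were at -0.34 and 0.03 and did not pass.

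AMPK-related kinases are the wider family of *Melk*. Of 12 measured, 0 were higher and 1 was lower by limma (0 higher and 4 lower at an unadjusted p under 0.05), with a median of -0.10. With 8.34% of all genes higher and 3.95% lower at the adjusted threshold, counts this small in a list of 12 say nothing about the family. The shares of all genes at the unadjusted threshold were not counted. The gene that fell was *Prkaa2*, a catalytic subunit of AMPK, at 9.96 and 9.78 in PBS mice and 8.75, 8.62 and 9.01 in CSF1-Fc mice. It fell by 1.07 on the log2 scale (adjusted p = 0.0113), and the call was lost without PBS replicate 1 (0.0967), PBS replicate 2 (0.0676) or CSF1-Fc replicate 1 (0.0577).

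Factors known to act at cell cycle promoters were also read. Of 14 with a row, 3 rose, 0 fell and 11 missed the threshold, with a median of 0.30. Over all genes 8.34% were higher and 3.95% lower, and with 14 genes the count was compared with these shares without a test. *Rbl1* (p107), a pocket protein, rose from 4.79 and 5.08 to 7.41, 7.12 and 7.65, a log2 fold change of 2.46 (SE 0.19, limma adjusted p = 0.000756). As the mean of its rows *Rbl1* was at 1.39, and with no moderation of the variance its adjusted p was 0.0576. *Mybl2* (B-Myb), which joins the complex bound at CHR elements, was at 5.28 and 5.07 in PBS mice and 6.34, 6.18 and 5.83 in CSF1-Fc mice. Its log2 fold change was 0.94 (adjusted p = 0.0297), and that of *Tfdp1*, the partner of E2F proteins, was 0.65 (adjusted p = 0.0338). The NF-Y subunits *Nfya*, *Nfyb* and *Nfyc* were at 0.83, -0.16 and 0.15 and did not pass, with *Nfya* nearest (adjusted p = 0.0581). Only 1 gene of this list was called without PBS replicate 1, PBS replicate 2 or CSF1-Fc replicate 1. Calls of *Mybl2* and *Tfdp1* were lost in each of these cases, with adjusted p values of 0.109, 0.212 and 0.102 for *Mybl2* and 0.132, 0.25 and 0.13 for *Tfdp1*. Without CSF1-Fc replicate 2 *Mybl2* was at 0.064, and without CSF1-Fc replicate 3 *Tfdp1* was at 0.0573. *Mybl2* was also lost with quantile normalization (0.0538), and *Tfdp1* as the mean of its rows (0.0666).

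**Figure D4:**
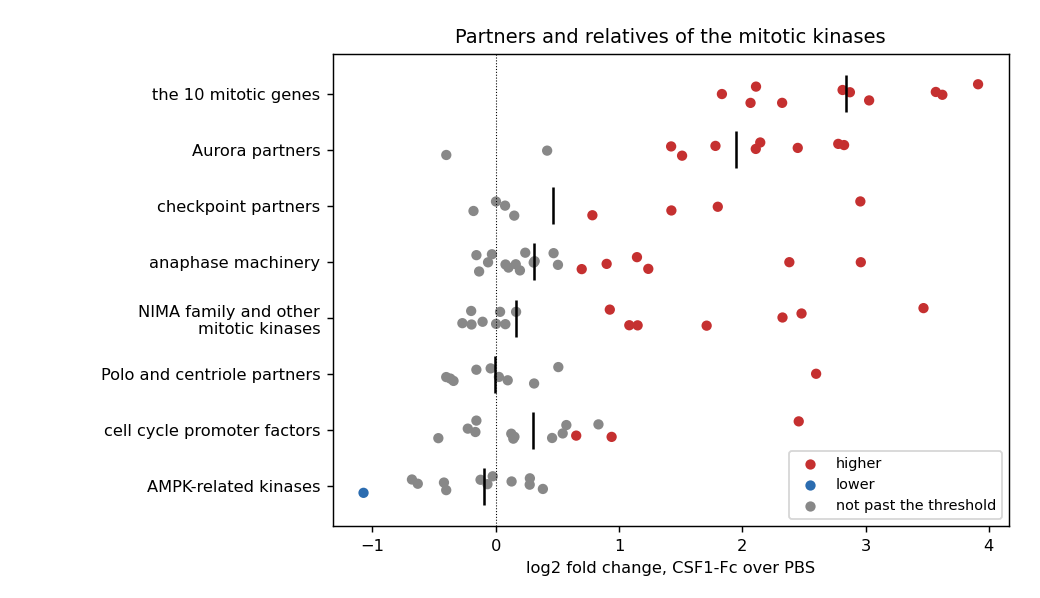
Points are genes, the horizontal axis is log2 fold change (CSF1-Fc over PBS), black lines are list medians, and red, blue and grey mark genes higher, lower and not past an adjusted p of 0.05 in limma (vertical scatter within a list has no meaning). The 10 mitotic genes have a median of 2.84 and the Aurora partners 1.95, and the other lists have medians between -0.10 and 0.47 with a few genes above 2.

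The genes whose profile over the 5 arrays lay nearest to the mean profile of the 10 were *Cotl1*, *Vav1*, *Cmklr1*, *Lfng*, *Cip2a* and *Knl1*. Likeness was the root mean square difference of log2 values after each profile was centred on its own mean, and it was 0.05 for *Cotl1* and 0.08 for *Knl1*. The log2 fold changes of the 6 ran from 2.75 (*Cmklr1*) to 2.96 (*Knl1*), near the median of 2.84 for the 10. With groups this tight, the measure largely follows the size of the rise. *Cotl1*, an actin-binding protein, was at 5.79 and 5.75 in PBS mice and 8.56, 8.62 and 8.67 in CSF1-Fc mice. *Vav1*, an exchange factor of blood cells, was at 5.68 and 5.65 in PBS mice and 8.64, 8.39 and 8.61 in CSF1-Fc mice. Among the 10 genes themselves, which make up that mean, *Mad2l1* was nearest to it, at 0.09, and *Aurkb* farthest, at 0.55.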

How the data were processed

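Liver RNA of 2 PBS and 3 CSF1-Fc mice was amplified, biotin labelled and measured on 1 array (Affymetrix Mouse Gene 1.1 ST) per mouse. The deposited values are intensities that the authors normalized, on a linear scale, with 1 column per mouse. Quality was checked in Expression Console (version 1.1 in the submitters' processing notes) and the arrays were imported into Partek Genomics Suite. The sources used here do not give how background was corrected, rows summarised or arrays normalized. No detection call was used, so dim rows (log2 intensity under 5) may be near background.

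limma 3.58.1 (R 4.3.3) was run on log2 intensities, with 1 mean per group (lmFit, then eBayes) and Benjamini-Hochberg adjustment over all 35556 rows. Rows with 1 symbol in the platform annotation numbered 21218 and covered 18820 genes, each read from its brightest row. The prior degrees of freedom were 3.34 and the residual ones 3. The fit was tested on simulated data. Arrays have no depth, and their number limits the precision. The labels number the mice. The limma p-values set the difference between groups against the spread between mice, with each row's variance moderated toward that of all rows.

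The 10 genes and the lists (14 in all, 101 partner and relative genes, of which 88 had a row with 1 symbol) were chosen with earlier results of these data known. Named were the 10 genes, their kinase family members, the 4 largest called changes without overlap in each partner list and the 6 nearest profiles. *Anapc1*, *Anapc2*, *Anapc5*, *Anapc15*, *Ajuba*, *Mad1l1*, *Cep152*, *Cep63*, *Cep135*, *Nfya*, *Nfyb*, *Nfyc*, *Fcgr1*, *Lcn2*, *S100a8*, *Tfrc*, *Alas2*, *Klf1*, *Gata1*, *Alb*, *Haspin*, *Cit*, *Vrk1*, *Fzr1*, *Pttg1* and *Mad2l1bp* were added once their values had been seen. The fit was repeated with quantile normalization, centring on array medians or liver secreted proteins, a pseudocount of 16, a filter on dim rows, rows of 1 symbol, the mean over rows, a variance trend, no moderation, array weights (statmod 1.5.0), a replicate block, each mouse left out and a threshold of 0.01.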

Additional observations from a re-analysis of the deposited data

How the results depend on the processing

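Each of the 10 genes kept its direction under up to 17 alternatives, and each passed in all of them except *Ttk*, *Nek2* and *Melk* with no moderation of the variance (adjusted p of 0.0599, 0.0613 and 0.0619). *Ttk* and *Melk* had no value among rows above the median level, since both were dimmer. Centring on liver secreted proteins moved the median log2 fold change of all rows from -0.08 to 0.10 and that of the 10 genes from 2.84 to 3.02. Over all rows, 2052 were higher and 1133 lower, against 550 and 127 with no moderation, 3416 and 3805 with array weights and 1255 and 177 at an adjusted p under 0.01. Rows lower numbered 580 with centring on secreted proteins and 1772 when only rows of 1 symbol were tested. With single mice left out, rows higher ranged from 1079 to 2053 and rows lower from 134 to 1768.

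With no moderation, called genes numbered 2 of the Aurora partners, 2 of the anaphase machinery, 2 of the NIMA and other mitotic kinases, 0 of the AMPK-related kinases and 0 of the promoter factors. Polo and centriole genes higher were 2, not 1, with quantile normalization, centring on secreted proteins, rows of 1 symbol and array weights. AMPK-related kinases lower were 3 among rows above the median level, 3 among rows of 1 symbol, 4 with array weights and 0 at 0.01. Promoter factors higher were 5, 5, 5 and 1 in those settings, and promoter factors lower were 1 with array weights. Anaphase genes higher were 2 at 0.01. With single mice left out, anaphase genes higher ranged from 2 to 6, NIMA and other kinases higher from 4 to 7, AMPK-related kinases lower from 0 to 2 and promoter factors higher from 1 to 3.

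The replicate numbers pair no animals across groups. Deviations of same-numbered mice correlated at -0.07 for replicate 1 and -0.25 for replicate 2. With the replicate number as a block all 10 genes passed, at log2 fold changes of 1.71 to 3.89, and 5 partner calls were lost: *Bub3* (0.0612), *Tfdp1* (0.113), *Anapc5* (0.0694), *Anapc15* (0.0614) and *Vrk1* (0.0804). Replicate 3 exists only among the CSF1-Fc mice, so the block takes up that mouse. The blocked fold changes of the 10 genes are therefore those without CSF1-Fc replicate 3, and no separate check on all 5 mice. Anaphase genes higher were then 4 and NIMA and other mitotic kinases higher 6. The block moved no count of calls by over 1.5 times.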
